A study of Mus musculus with 4 samples.

Results

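The proximal tubule is the stretch of the nephron that takes back most of the filtered glucose, phosphate, bicarbonate and small organic acids, and that secretes organic anions into the urine. Its cells burn fatty acids, make the creatine precursor guanidinoacetate and release the plasma glutathione peroxidase. The 10 genes described here each stand for one of these tasks: Slc27a2 for very long chain fatty acid uptake and activation, Slc22a6 and Slc22a8 for basolateral organic anion uptake, Slc34a1 for phosphate, Slc5a1 and Slc5a2 for sodium-coupled glucose uptake, Slc4a4 for bicarbonate exit, Slc13a3 for dicarboxylates, Gatm for guanidinoacetate synthesis and Gpx3 for extracellular peroxide removal. They were chosen by name, with earlier results of these data known, and every probe set assigned to them was kept, however dim. These 10 of 18193 genes gave 21 of the 45037 probe sets on the arrays, with 1 probe set each for Slc27a2, Slc34a1, Gatm and Gpx3.

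The cells came from the mouse ES cell line EB3 (strain 129/Ola), which carries a CAG-driven GFP and was differentiated for 18 days with Activin at 10 ng/mL. On day 18 they were sorted with an antibody to KSP (kidney-specific cadherin, the product of Cdh16, a cadherin of tubular epithelium in the adult kidney) into KSP-positive GFP-positive cells and KSP-negative GFP-positive cells, after dead cells had been gated out. All cells therefore shared 1 line, its GFP transgene and the Activin treatment. Each group had 2 samples, 1 Affymetrix array each, and the question was whether the sorted KSP-positive cells carry transcripts of proximal tubule function. The paper states that the samples were gathered in 2 independent experiments, but no label says which samples came from the same one. In such sorted populations, fewer cells of a type and less RNA per cell cannot be told apart.

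Signals are given on a log2 scale after scaling the arrays to the same 75th percentile. A floor at 3.62, the 20th percentile over the 4 arrays, replaced lower values, and values at the floor have no order among themselves. The median deposited signal was 55.2 and 62.2 in the KSP-positive samples, against 67.4 and 56.4 in the KSP-negative samples. Arrays of one group correlated at 0.928 (KSP-positive) and 0.932 (KSP-negative), and arrays of different groups at 0.850 to 0.916. The ratio of 3′ to 5′ actin probe sets, a measure of RNA integrity, was 2.92 and 1.80 in KSP-positive samples, against 1.79 and 3.55 in KSP-negative samples, and did not separate the groups. Cdh16, the gene of the sort antigen, read 5.66 and 5.03 in KSP-positive samples, against 5.30 and 4.71 in KSP-negative samples. These groups overlapped, with a difference of 0.34 (95% confidence interval -0.96 to 1.63, adjusted p = 0.857, limma). Its mean lay just over the filter on dim probe sets, so this probe set neither bears out the label nor goes against it.

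The start regions of the members were read from RefSeq (build GRCm38.p6), which held 10 regions for 9 of the 10 genes. Slc27a2 is shown because the widest contrast below is at this gene. The 250 bases before its start, chr2:126552774-126553023 on the plus strand, read as follows, with capitals on the nuclear receptor half-site AGGTCA (here on the other strand).
Slc27a2: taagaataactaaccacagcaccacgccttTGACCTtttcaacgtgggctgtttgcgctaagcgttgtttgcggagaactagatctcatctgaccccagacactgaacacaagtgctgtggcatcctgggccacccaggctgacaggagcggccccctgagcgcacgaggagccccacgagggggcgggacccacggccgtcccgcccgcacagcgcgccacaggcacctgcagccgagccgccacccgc
This stretch holds 19 CpG dinucleotides, and its half-site match lies 220 bases before the start. Over 300 bases around the start, AGGTCA or its reverse complement was found in 3 of the 10 member regions and in 16.3% of 32851 RefSeq regions.

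The phosphate transporter and both organic anion transporters are shown because they share a motif. The half-site GTTAAT, part of the sequence that the tubular factor HNF1 binds, was found on either strand in 3 of the 10 member regions and in 7.1% of all regions. The 100 bases before each start are given, all on the plus strand, with capitals on the match.
Slc34a1, chr13:55399548-55399647: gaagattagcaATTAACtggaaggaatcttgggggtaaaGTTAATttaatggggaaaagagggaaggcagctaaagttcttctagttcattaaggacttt
Slc22a6, chr19:8617896-8617995: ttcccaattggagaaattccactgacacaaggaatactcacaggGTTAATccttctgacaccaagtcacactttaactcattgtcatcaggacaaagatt
Slc22a8, chr19:8593082-8593181: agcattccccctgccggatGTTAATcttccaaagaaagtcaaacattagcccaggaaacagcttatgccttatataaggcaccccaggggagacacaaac
Slc34a1 has 2 matches, 89 and 61 bases before its start, while Slc22a6 has 1 at 56 bases and Slc22a8 has 1 at 81 bases. The letters TATAAA of the TATA box were found in 1 member region, that of Slc34a1, and in 13.6% of all regions. The Slc34a1 match is at base 17 after the start used here, and so not where such a box lies for that start. Starts outside these regions were not examined. Such matches describe letters in these windows and say nothing of binding in these cells.

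As a group, the members were dim and gave no call. Of the 21 probe sets, 13 were at the floor on at least 1 array and 8 were above it on all 4 arrays. A mean over the 40th percentile of all probe sets (5.14) was asked for before a test, and 8 member probe sets of 6 genes passed it. The other 13 probe sets have values and differences only, and all probe sets of Slc34a1, Slc5a1, Slc22a6 and Slc22a8 are among them. By limma with Benjamini-Hochberg adjustment over 27022 probe sets, 0 member probe sets were higher and 0 were lower in KSP-positive cells at an adjusted p under 0.05, and 1 (Slc27a2) was under 0.05 before adjustment. Over all probe sets tested, 0.307% were called higher and 0.296% lower, so a count of 0 among 8 is near this background.

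**Figure D1:**
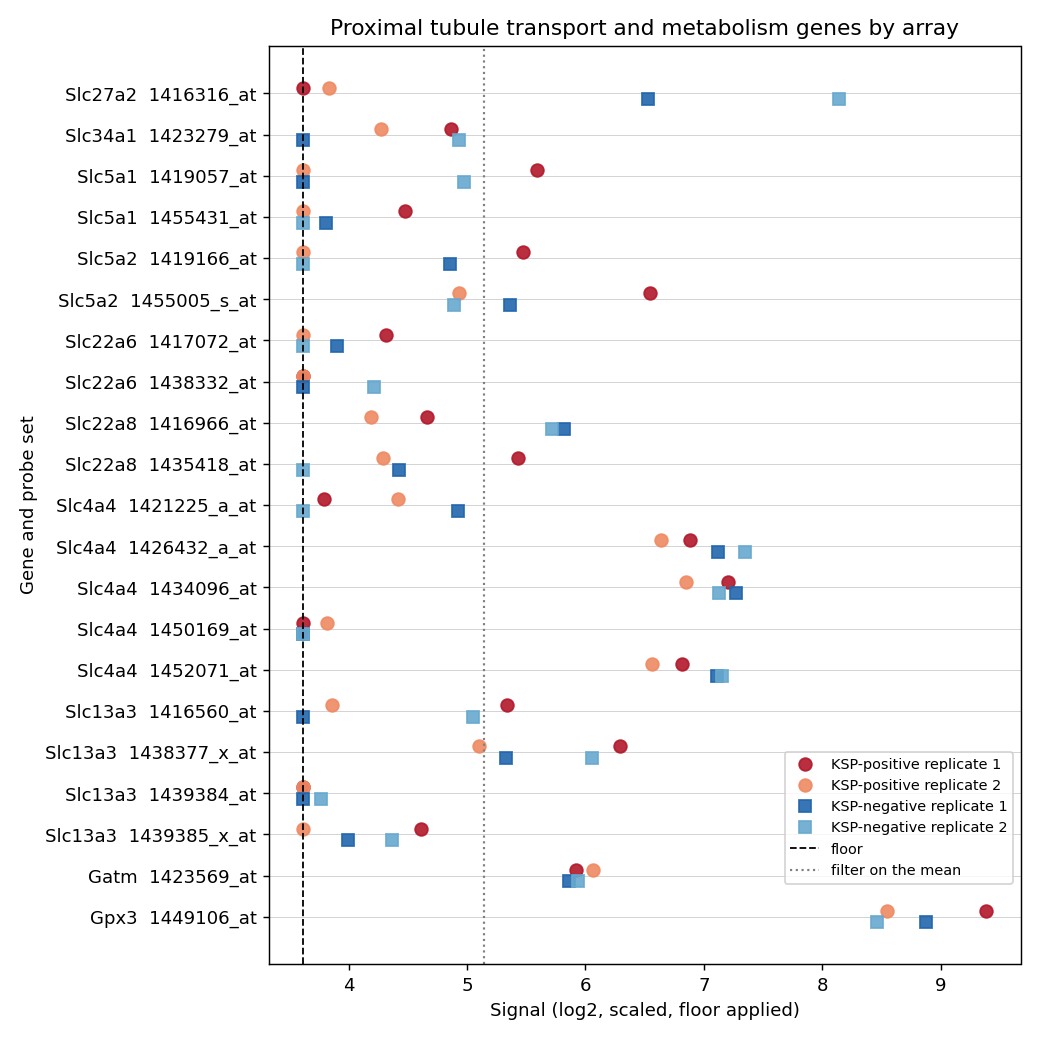
Signal of each of the 21 member probe sets on each array (horizontal axis, log2, scaled, floor applied), with circles for the KSP-positive and squares for the KSP-negative samples. The dashed line is the floor at 3.62 and the dotted line the filter at 5.14, and the widest gap between the groups is in the Slc27a2 row, with the KSP-negative squares at 6.53 and 8.14.

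Without regard to a test, 0 member probe sets were over 2-fold higher and 2 were over 2-fold lower in KSP-positive cells, the Slc27a2 probe set and 1 of the Slc22a8 probe sets. Among all probe sets, 6.21% were over 2-fold higher and 5.81% over 2-fold lower. The groups did not overlap at 0 member probe sets in the higher direction and at 4 in the lower, namely Slc27a2, Slc22a8 1416966_at and the Slc4a4 probe sets 1426432_a_at and 1452071_at. Over the whole array, 16.1% of probe sets had non-overlapping groups in the higher direction and 18.3% in the lower. The remaining 17 member probe sets overlapped.

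Slc27a2, a very long chain acyl-CoA synthetase and fatty acid transporter of the proximal tubule and liver, showed the widest contrast of the members. Its deposited signal (1416316_at) was 4.21 and 16.3 in the KSP-positive samples, against 102 and 267 in the KSP-negative samples. On the log2 scale it was 3.62 (the floor) and 3.84 in KSP-positive samples, against 6.53 and 8.14 in KSP-negative samples. Both KSP-positive samples were thus at or just over the floor, both KSP-negative samples were well above it, and the groups did not overlap. The means were 3.73 ± 0.15 and 7.34 ± 1.14 (SD, n = 2 each), a difference of -3.61 with a standard error of 0.63 and a 95% confidence interval of -5.05 to -2.17. With 1 of the 2 KSP-positive values raised to the floor, this was 12.2-fold lower in KSP-positive cells. Without the floor the difference was -4.22, and with a floor at the 40th percentile it was -2.12. The adjusted p over all probe sets was 0.0522 (limma), just above the threshold of 0.05, so the difference was not called. The gene entered the test only through its KSP-negative signal.

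This outcome turned on the processing. Fitted on all 4 arrays, Slc27a2 was called with the deposited values (limma adjusted p = 0.0019) and robust empirical Bayes (0.0423). Same-numbered samples as a block also gave a call (0.00277). The brightest probe set per gene (0.0127) and the mean per gene (0.0185) gave calls too, but these settings were chosen after seeing the data. In the other settings with all 4 arrays that gave an adjusted p, Slc27a2 was not called (up to 0.604, the methods' t-test). Differences ran from -4.22 to -2.12, always lower in KSP-positive cells. Leaving out KSP-positive replicate 1, KSP-positive replicate 2 or KSP-negative replicate 1 gave differences of -3.50, -3.61 and -4.40, with 1 sample left in a group. Without KSP-negative replicate 2 the mean dropped under the filter.

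Transcripts of other cell types differed between the same samples, in marker lists that were chosen with earlier results of these data known. Of 10 markers of undifferentiated ES cells, 7 were called lower in KSP-positive cells, 0 were called higher, and the summed scaled signal was 7913 and 8630 in KSP-positive samples, against 17051 and 29609 in KSP-negative samples. Klf4, which is also active in differentiated epithelia, ran the other way without overlap and was not called (adjusted p = 0.681), and it made up 6574 and 6979 of the KSP-positive sums, against 4967 and 5709 of the KSP-negative sums. Pou5f1, the pluripotency factor Oct4, read 5.37 and 5.48 in KSP-positive samples, against 9.15 and 10.36 in KSP-negative samples (adjusted p = 0.0178, limma). Of 11 visceral endoderm and hepatocyte markers on the array, 0 were called, but 8 had non-overlapping groups with the KSP-positive samples lower, and their sum was 12771 and 5614 in KSP-positive samples, against 25723 and 21878 in KSP-negative samples. Of 8 intestinal markers, 2 were tested and 0 called, 5 did not overlap with KSP-positive lower, and Cdx1 and Cdh17 were at the floor on every array. The sum of the intestinal markers was 242 and 208 in KSP-positive samples, against 633 and 673 in KSP-negative samples. The Slc27a2 values thus differed in the same direction as these 3 lists. Their part in the Slc27a2 difference was not tested.

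Macrophage and mesenchymal markers ran the other way. All 12 macrophage markers had non-overlapping groups, 8 of them were called higher in KSP-positive cells, and their sum was 22544 and 10307 in KSP-positive samples, against 1630 and 1534 in KSP-negative samples. C1qa, a complement gene of macrophages, was at the floor in both KSP-negative samples and at 9.37 and 8.86 in KSP-positive samples. All 9 mesenchymal markers also had non-overlapping groups, with 2 called higher and a sum of 66388 and 48701 in KSP-positive samples, against 30577 and 16269 in KSP-negative samples. The methods describe a block with an antibody to the Fc receptors CD16/CD32 before the KSP antibody was added. Whether Fc receptors had a part in these values was not tested. The part of the macrophage and mesenchymal lists in the member values below was not tested either.

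The organic anion transporters gave no common direction. Slc22a8 (Oat3), which brings organic anions in from the blood side, was read by 2 probe sets. The first, 1416966_at, was 4.66 and 4.19 in KSP-positive samples, against 5.82 and 5.72 in KSP-negative samples. Here both KSP-negative samples were higher and the groups did not overlap, with means of 4.43 ± 0.33 and 5.77 ± 0.07 (SD, n = 2 each) and a difference of -1.35, or 2.54-fold lower in KSP-positive cells. Its mean was just under the filter, and in a limma fit over all 45037 probe sets with no floor and no filter the 95% confidence interval was -2.80 to 0.11 (adjusted p = 0.542).
The second Slc22a8 probe set, 1435418_at, differed in the opposite direction. It was 5.43 and 4.29 in KSP-positive samples, against 4.42 and 3.62 (the floor) in KSP-negative samples, and the groups overlapped. Its difference was 0.84 with the floor and 1.82 without it (95% confidence interval -0.76 to 4.40, adjusted p = 0.653). The 2 probe sets of this gene therefore disagreed in sign, and neither passed in that fit.

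Slc22a6 (Oat1), the other basolateral organic anion exchanger, was at or near the floor throughout. Probe set 1417072_at was 4.32 and 3.62 in KSP-positive samples, against 3.91 and 3.62 in KSP-negative samples. Probe set 1438332_at was at the floor in both KSP-positive samples, against 3.62 (the floor) and 4.21 in KSP-negative samples. Of the 8 values, 5 were set by the floor, so no difference could be read at this signal. Without the floor the differences were -0.95 and 0.76, with intervals of -3.68 to 1.78 and -1.99 to 3.52.

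Slc34a1 (NaPi-IIa), the main apical phosphate transporter, was dim in both groups. It read 4.86 and 4.27 in KSP-positive samples, against 3.62 (the floor) and 4.94 in KSP-negative samples. The KSP-positive values lay between the KSP-negative values. The difference was 0.29 with the floor and 0.92 without it (95% confidence interval -1.48 to 3.31, adjusted p = 0.831, limma with no filter), an interval that holds more than a 2-fold change either way.

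The sodium-glucose cotransporters were likewise dim, and in each case their highest value was in KSP-positive replicate 1. Slc5a2 (SGLT2), the high-capacity transporter of the early proximal tubule, passed the filter with 1 of 2 probe sets. This one, 1455005_s_at, was 6.55 and 4.93 in KSP-positive samples, against 5.36 and 4.89 in KSP-negative samples. The groups overlapped, and the difference was 0.62 ± 0.65 (SE) with a 95% confidence interval of -0.86 to 2.09 (adjusted p = 0.752, limma). Leaving out KSP-positive replicate 2 gave 1.42, leaving out KSP-negative replicate 2 gave 0.38, and without KSP-positive replicate 1 the probe set dropped under the filter. The suffix of this probe set marks probes that can match more than 1 transcript. The other Slc5a2 probe set, 1419166_at, was 5.47 and 3.62 (the floor) in KSP-positive samples, against 4.86 and 3.62 (the floor) in KSP-negative samples.
Slc5a1 (SGLT1), the high-affinity transporter of the late proximal tubule and of the intestine, did not pass the filter. Probe set 1419057_at was 5.59 and 3.62 in KSP-positive samples, against 3.62 and 4.98 in KSP-negative samples. Probe set 1455431_at was 4.48 and 3.62 in KSP-positive samples, against 3.81 and 3.62 in KSP-negative samples. At each probe set 1 array of each group was at the floor and the groups overlapped. The unfloored differences of 0.34 and 0.41 had intervals of -1.92 to 2.60 and -1.76 to 2.57.

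Slc4a4 (NBCe1), the electrogenic sodium bicarbonate cotransporter that carries bicarbonate out to the blood, was read above the filter by 3 of its 5 probe sets. Probe set 1426432_a_at was 6.89 and 6.64 in KSP-positive samples, against 7.12 and 7.35 in KSP-negative samples. Probe set 1452071_at was 6.82 and 6.56 in KSP-positive samples, against 7.11 and 7.16 in KSP-negative samples. In both, the KSP-negative samples were higher without overlap, but the gap was small, 1.39-fold and 1.36-fold lower in KSP-positive cells. The first had a difference of -0.48 ± 0.41 (SE, 95% confidence interval -1.41 to 0.45, adjusted p = 0.682), and the second one of -0.44 ± 0.41 (SE, interval -1.38 to 0.49, adjusted p = 0.708, both limma).
At the third, 1434096_at, the values were 7.21 and 6.85 in KSP-positive samples, against 7.27 and 7.12 in KSP-negative samples, which overlapped. Its interval, -1.09 to 0.76, holds a 2-fold lower but not a 2-fold higher level in KSP-positive cells, as do those of the other bright probe sets. The remaining probe sets, 1421225_a_at and 1450169_at, lay under the filter, with differences of -0.17 and 0.10, and 1450169_at was at the floor on 3 arrays, with 3.81 in KSP-positive replicate 2. Transcripts of Slc4a4 are also made outside the kidney, for example in pancreas and brain.

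**Figure D2:**
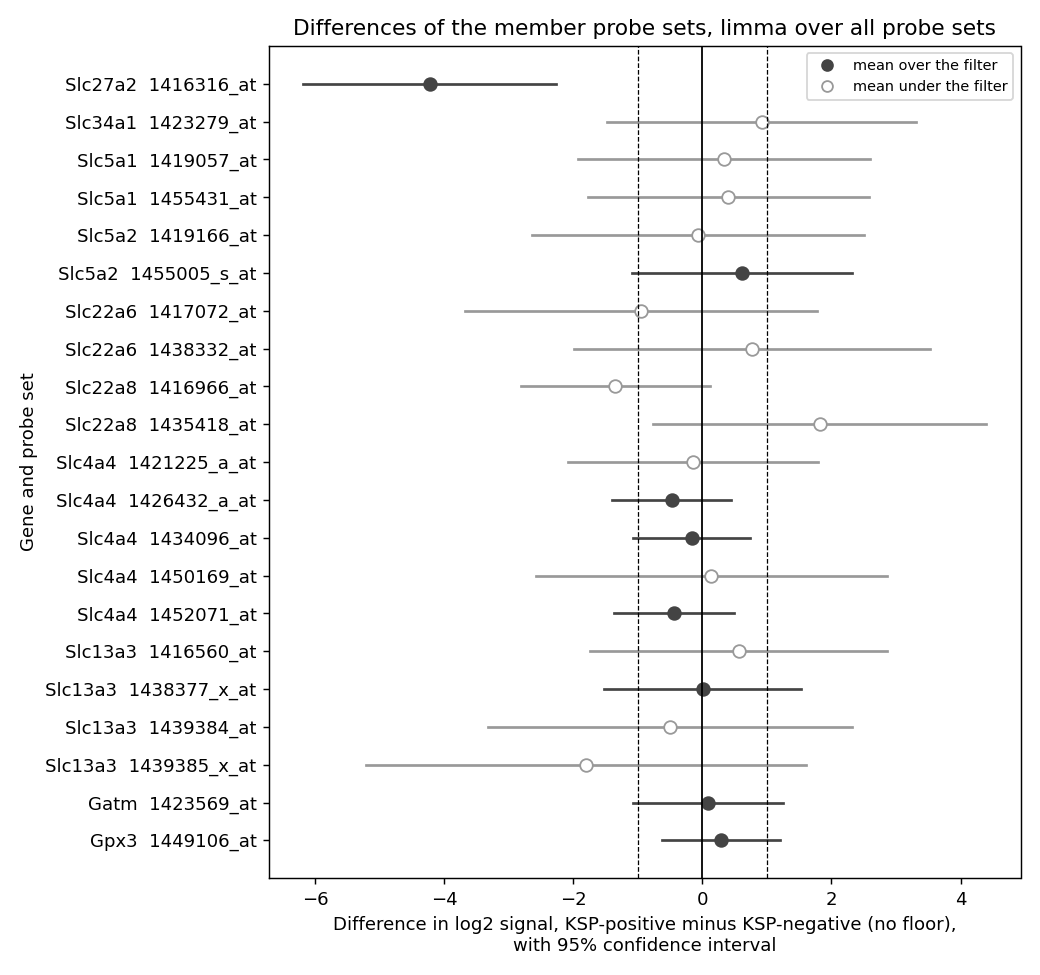
Difference in log2 signal (horizontal axis, KSP-positive minus KSP-negative, no floor) of each member probe set, with the 95% confidence interval of a limma fit over all 45037 probe sets. Filled points had a mean over the filter, open points did not, and the dashed lines mark 2-fold. Only the interval of Slc27a2 (-6.18 to -2.27) leaves out 0, and its adjusted p in this fit was 0.199.

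Slc13a3 (NaDC3), the basolateral importer of dicarboxylates such as succinate and 2-oxoglutarate, passed the filter with 1 of 4 probe sets. That probe set, 1438377_x_at, was 6.30 and 5.10 in KSP-positive samples, against 5.33 and 6.06 in KSP-negative samples. The groups overlapped fully, and the difference of 0.00 had a 95% confidence interval of -1.34 to 1.35 (adjusted p = 0.999, limma). Its suffix marks probes prone to cross-hybridisation. Of the others, 1416560_at was 5.33 and 3.86 in KSP-positive samples, against 3.62 (the floor) and 5.05 in KSP-negative samples. Probe sets 1439384_at and 1439385_x_at had differences of -0.07 each, with 3 arrays and 1 array at the floor. Without the floor these were -0.50 and -1.80, with intervals of -3.32 to 2.32 and -5.21 to 1.60. The groups overlapped at every Slc13a3 probe set.

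Gatm, the mitochondrial amidinotransferase that makes guanidinoacetate, was nearly the same on every array. It read 5.92 and 6.06 in KSP-positive samples, against 5.86 and 5.94 in KSP-negative samples. The means were 5.99 ± 0.10 and 5.90 ± 0.05 (SD, n = 2 each), and the difference of 0.09 had a 95% confidence interval of -0.97 to 1.15 (adjusted p = 0.966, limma). The groups overlapped, and the interval leaves out a 2-fold lower but not a 2-fold higher level in KSP-positive cells.

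Gpx3, the secreted glutathione peroxidase that proximal tubule cells supply to the plasma, was above the floor and the filter on every array. Its deposited signal was 539 and 427 in KSP-positive samples, against 521 and 334 in KSP-negative samples. After scaling it was 9.39 and 8.54 in KSP-positive samples, against 8.88 and 8.46 in KSP-negative samples. KSP-positive replicate 1 was the highest and the groups overlapped. The means were 8.97 ± 0.60 and 8.67 ± 0.29 (SD, n = 2 each), and the difference was 0.29 ± 0.41 (SE, 95% confidence interval -0.64 to 1.23, adjusted p = 0.823, limma). Gpx3 is also made by other tissues, adipose tissue among them. The adipocyte marker list had 4 genes on the array, 2 of them tested with 0 called, a sum of 7955 and 6971 in KSP-positive samples, against 3177 and 3243 in KSP-negative samples, and its part in the Gpx3 signal was not tested.

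The members were then set beside 112 further genes of the proximal tubule, listed by role, of which 101 had a probe set and 61 were tested. Of these, 0 were called higher, 2 were called lower in KSP-positive cells and 59 did not pass (limma, adjusted over all probe sets). Over all 12849 genes tested, 0.428% were called higher and 0.459% lower. The median difference of the 61 genes was -0.19, against -0.03 over all genes tested. Groups did not overlap at 14 of the 101 genes (13.9%) with KSP-positive higher and at 32 (31.7%) with KSP-positive lower, against 3630 and 3832 of all 18193 genes. Of the 101 genes, 32 were at the floor on at least 1 array and 7 on all 4 arrays.

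Both calls fell in the acid-base list, where 5 genes were on the array and tested, with a median of -1.91. Car4, the membrane-bound carbonic anhydrase of the brush border, was 7.90 and 8.61 in KSP-positive samples, against 11.24 and 10.73 in KSP-negative samples. Car2, the cytosolic carbonic anhydrase, was 7.33 and 8.40 in KSP-positive samples, against 10.35 and 11.40 in KSP-negative samples. Neither gene's groups overlapped. Car4 was 6.64-fold lower in KSP-positive cells (difference -2.73 ± 0.39 SE, adjusted p = 0.0319) and Car2 8.07-fold lower (-3.01 ± 0.49 SE, adjusted p = 0.0422, both limma). Both genes are also active in other epithelia and cell types. Both calls held with the deposited values (limma adjusted p = 0.0092 for Car4 and 0.00729 for Car2) and after quantile normalization (0.0391 and 0.0449). They also held with no floor (0.0327 and 0.0452), robust empirical Bayes (0.0238 and 0.0323) and a filter at the 60th percentile (0.0229 and 0.0301). Both calls were lost, at the same differences, with no filter (adjusted p = 0.368 for Car4 and 0.441 for Car2), with no floor and no filter (0.125 and 0.152), without the intensity trend (0.0753 and 0.0946) and by the methods' t-test after adjustment (0.578 and 0.604). The Car2 call was also lost with a floor at the 40th percentile (0.0505) and without KSP-negative replicate 2 (0.101, difference -2.49).

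**Figure D3:**
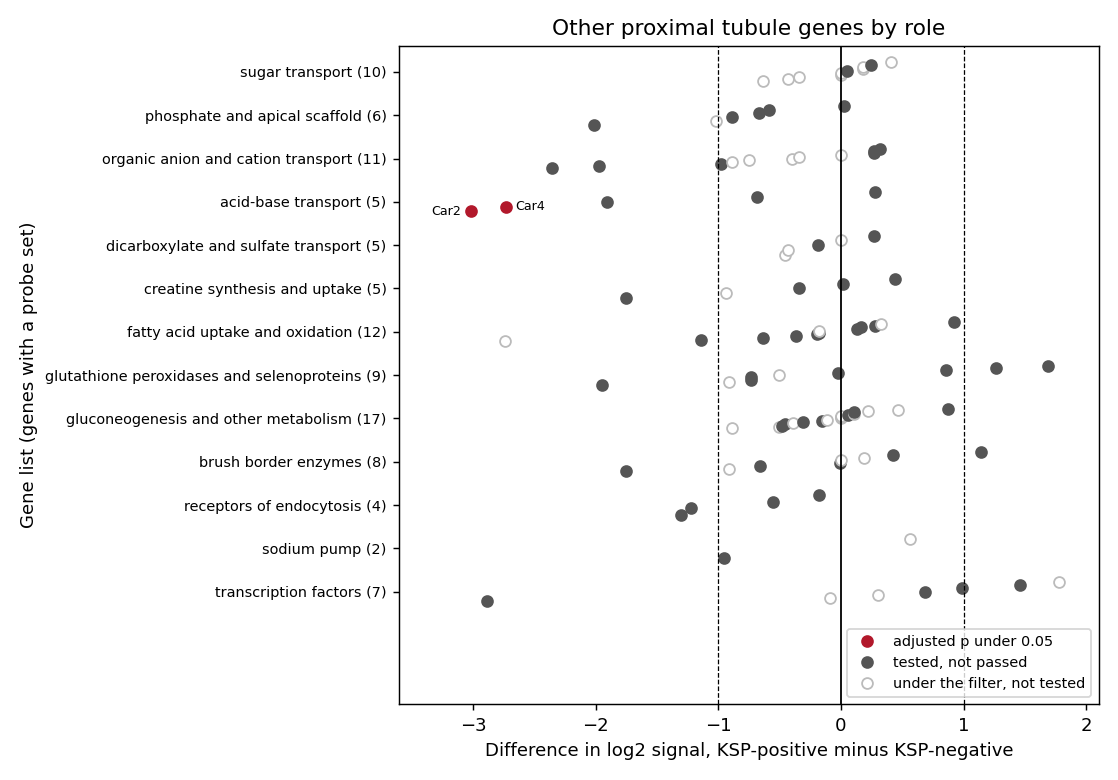
Difference in log2 signal (horizontal axis, KSP-positive minus KSP-negative) of each further proximal tubule gene with a probe set, in rows by role, with the number of genes in brackets. Red points passed an adjusted p of 0.05, dark points were tested and did not pass, open points were under the filter, and dashed lines mark 2-fold. The 2 red points are Car2 at -3.01 and Car4 at -2.73.

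In the other 12 lists 0 genes were called in either direction. Of the sugar transporters 10 were on the array and 2 tested (median 0.15), and of the phosphate transporters and apical scaffold proteins 6 and 5 (median -0.67). Of the organic anion and cation transporters 11 were on the array and 6 tested (median -0.35), of the dicarboxylate and sulfate transporters 5 and 2 (0.04), and of the creatine genes 5 and 4 (-0.16). Fatty acid uptake and oxidation had 12 on the array and 9 tested (-0.18), the glutathione peroxidases and selenoproteins 9 and 7 (-0.02), and gluconeogenesis and related metabolism 17 and 7 (-0.15). These lists cover the roles of the members other than bicarbonate transport.
The brush border enzymes had 8 on the array and 5 tested (-0.01). The endocytic receptors had 4 and 4 (-0.89), the sodium pump list 2 and 1 (-0.95), and the transcription factors 7 and 4 (0.84). Of the transcription factors, 4 had non-overlapping groups with KSP-positive higher and 1, Hnf4a, with KSP-positive lower. Over all genes these shares were 20% and 21.1%. The 4 were Ppara (difference 1.78, under the filter), Ppargc1a (1.46), Maf (0.99) and Esrrg (0.68), and none was called. Whether other cell types, such as those of the macrophage and mesenchymal lists, had a part in these 4 differences was not tested.

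Of the 8 defining markers of the proximal tubule, 4 are members and 5 were tested, with 0 called. Their summed scaled signal was 602 and 292 in KSP-positive samples, against 975 and 638 in KSP-negative samples. Hnf4a, a transcription factor of proximal tubule, liver and endoderm, was 6.0 and 4.52 in KSP-positive samples, against 8.55 and 7.74 in KSP-negative samples (difference -2.88 ± 0.58 SE, adjusted p = 0.0743, limma). It also counts among the visceral endoderm and hepatocyte markers above. Hnf4a made up 63.8 and 22.9 of the KSP-positive sums, against 374 and 213 of the KSP-negative sums. Much of the gap between the sums therefore rested on Hnf4a and not on the defining markers as a set. Fitted per probe set, Hnf4a was called with the deposited values and with same-numbered samples as a block. It was also called with the brightest probe set per gene (adjusted p = 0.0188, limma). Hnf4a was not called after quantile normalization, with no floor, with a floor at the 40th percentile or with robust empirical Bayes. Nor was it called with no filter, without the intensity trend or by the methods' t-test. Leaving out 1 array gave differences from -3.62 to -2.15, with 1 sample left in a group. Lrp2 (megalin), the endocytic receptor of the brush border, was 5.72 and 5.62 in KSP-positive samples, against 6.82 and 7.13 in KSP-negative samples (difference -1.30, adjusted p = 0.254). Both had non-overlapping groups with KSP-positive lower, and neither passed here.
Cubn (cubilin), the partner of megalin, overlapped, with a difference of -0.55 (adjusted p = 0.777) that changed sign to 0.27 without KSP-positive replicate 2 and to 0.13 without KSP-negative replicate 1. Aqp1, the water channel of the proximal tubule that is also found in endothelium, was 6.02 and 6.10 in KSP-positive samples, against 5.09 and 4.88 in KSP-negative samples. It was the only defining marker whose groups did not overlap with KSP-positive higher, by 1.07 (adjusted p = 0.414, limma). Of 6 markers of later nephron segments 1 was tested and 0 called, and Umod and Slc12a3 were at the floor on all 4 arrays.

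**Figure D4:**
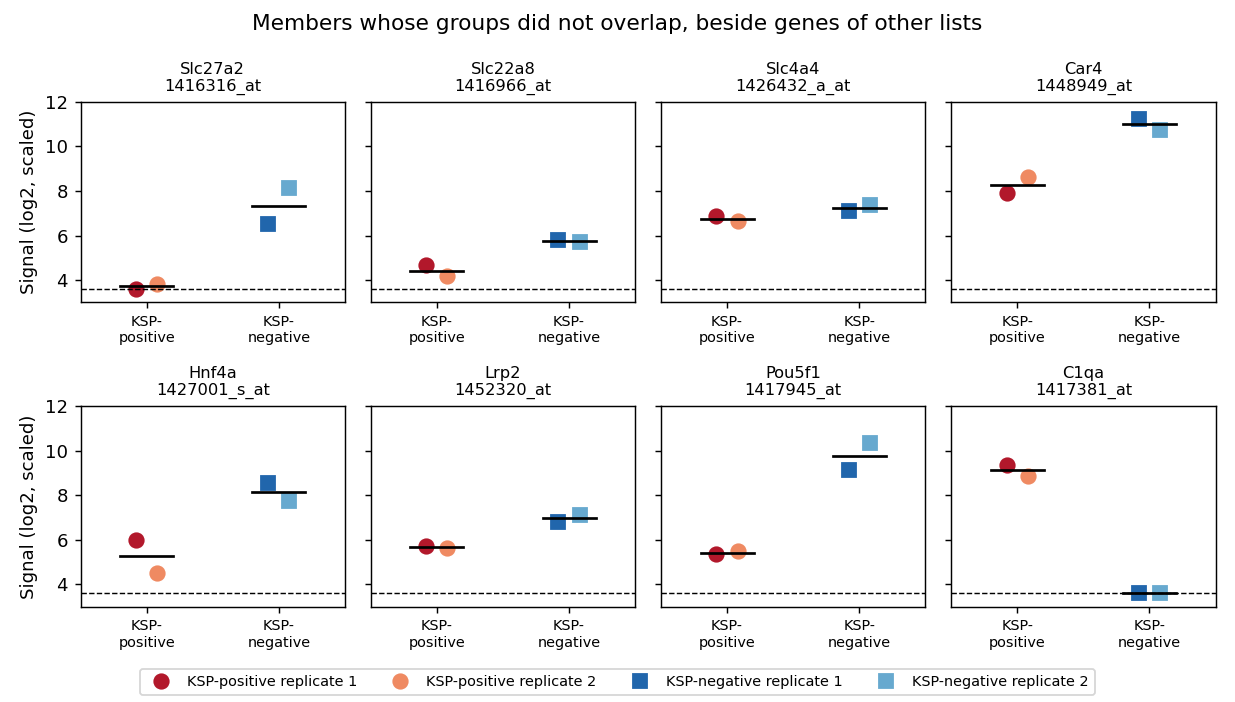
Scaled log2 signal of 3 members whose groups did not overlap (Slc27a2, Slc22a8, Slc4a4) and of 5 genes of other lists, with KSP-positive samples at the left and KSP-negative samples at the right of each panel. Bars are group means and the dashed line is the floor at 3.62. Pou5f1, an ES cell gene, and C1qa, a macrophage gene, show the 2 opposite directions, and Slc4a4 the smallest of the gaps.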

How the data were processed

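The deposited values were MAS5 signal intensity per probe set, made by the authors on a linear scale and not log-transformed; the MAS5 version is not given in the sources used here. Of these, 64 control probe sets were left out. Symbols came from the platform annotation, updated through RefSeq (GRCm38.p6): 34945 probe sets had 1 gene, 932 several and 9160 none. Signals were scaled to the same 75th percentile on all arrays (281), floored at the 20th percentile (12.3) and taken to log2. Those whose mean exceeded the 40th percentile were tested one by one with limma 3.58.1 (R 4.3.3, group means, intensity trend, Benjamini-Hochberg over 27022 probe sets); the script was tested on simulated data. For list genes the brightest kept probe set stood for the gene. Named were every member, up to 2 called genes per list and direction, defining and leading markers, and Cdh16. The members and lists were chosen with earlier results of these data known. Microarrays of 2 against 2 samples allow an exact permutation p no lower than 0.333, so none was run. The p-values measure the spread between these samples, which came from 2 independent experiments. How much of this spread was technical was not tested. The main fit took no account of the experiment, and the number of arrays limits the precision. Alternatives in scaling, floor, filter, model and samples were tried. Figures were drawn with matplotlib 3.10.9.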

Additional observations from a re-analysis of the deposited data

How the results depend on the processing

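Against 83 probe sets called higher and 80 lower in KSP-positive cells, the deposited values without rescaling gave 181 and 241, a floor at the 40th percentile 45 and 49, no filter 0 and 0, no floor and no filter 1 and 0, and a fit without the intensity trend 29 and 23. One probe set per gene gave 236 and 212 (brightest) or 220 and 180 (mean). The methods' t-test gave 1106 and 1105 at an unadjusted p under 0.05, and 0 and 0 after adjustment. Leaving out 1 array gave 35 to 339 and 24 to 443. Of the further proximal tubule genes, against 0 called higher and 2 lower, 4 were lower with deposited values, 1 with the higher floor, and 0 with no filter, with no floor and no filter, without the trend, or by the adjusted t-test. The brightest probe sets gave 1 higher and 6 lower, means 2 and 5, the unadjusted t-test 2 and 4, and leaving out 1 array 0 to 1 and 1 to 7.

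Of the members, Slc27a2 was the 1 probe set called lower with deposited values (adjusted p = 0.0019), robust empirical Bayes (0.0423), the brightest probe set per gene (0.0127) or their mean (0.0185), and in the unadjusted t-test; leaving out 1 array gave 0 to 1 calls. The settings per gene were chosen for single members after seeing the data. Slc27a2 was not called after quantile normalization (0.0655), with no floor (0.0549), the higher floor (0.165), no filter (0.44), no floor and no filter (0.199), no trend (0.0753) or the adjusted t-test (0.604). A filter at the 60th percentile left no Slc27a2 value. The cause was not tested. Over 2-fold, 1 member probe set was higher and 3 lower with no floor and with no floor and no filter, 0 to 4 were higher when 1 array was left out, while 1 was lower with the higher floor or a 3-fold threshold. For the other tested members, 112 of 118 alternative values kept direction and call, and 6 changed sign, all far from the threshold. With deposited values the difference was -0.088 at Slc13a3 1438377_x_at and -0.0015 at Gatm. Leaving out 1 array gave -0.60 to 0.60 at Slc13a3, -0.13 to 0.71 at Gpx3, -0.34 to 0.0098 at Slc4a4 1434096_at, 0.38 to 1.42 at Slc5a2 1455005_s_at and -1.38 to 0.27 at Cubn. Of 208 values of untested members, 189 moved by less than 1 SD. In the settings that changed only the filter, the model or the test, no difference could move. Those settings count among the 189, and among the 112 only the call could change there.

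With the replicate block, 851 probe sets were called higher and 779 lower, 2 further proximal tubule genes higher and 9 lower, and 1 member lower (Slc27a2, adjusted p = 0.00277). Of the other genes named, the block also called Hnf4a (0.00174), Abcc4 (0.00258), Gpx7 (0.0108) and Gpx8 (0.0441). It kept the calls of Car4 (0.00105) and Car2 (0.00025, all limma adjusted p). Same-numbered samples deviated together at a correlation of 0.306 over 27022 probe sets, but no source says that a number marks an experiment, and with 2 pairs the correlation cannot settle it. Dim signal limits the members: 13 of 21 probe sets were at the floor on at least 1 array.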

Other observations

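Several genes that act beside the members were singled out after their values were seen. Fabp1, the fatty acid binding protein of liver, intestine and proximal tubule, was at the floor in both KSP-positive samples, against 6.72 and 6.0 in KSP-negative samples, and lay under the filter. With the floor applied it was 6.69-fold lower in KSP-positive cells, and without the floor the difference was -3.33. Of the relatives of Slc27a2 that were tested, Slc27a1 differed by -0.20, Slc27a3 by -0.18 and Slc27a4 by 0.13 (adjusted p = 0.898, 0.911 and 0.929, limma). Abcc4, the apical organic anion pump, was 7.49 and 7.14 in KSP-positive samples, against 9.26 and 10.08 in KSP-negative samples (difference -2.36, adjusted p = 0.0514, limma), and was called in 7 of 15 alternatives fitted per probe set. Among relatives of Gpx3, Gpx7 was 9.71 and 9.80 in KSP-positive samples, against 8.44 and 7.69 in KSP-negative samples (difference 1.69, adjusted p = 0.105, and 0.0378 with the brightest probe set per gene), and Gpx8 was 9.95 and 10.59 in KSP-positive samples, against 9.15 and 8.87 in KSP-negative samples (difference 1.26, adjusted p = 0.192). Selenop, the plasma selenoprotein, differed by 0.86 (adjusted p = 0.321). These 3 genes had non-overlapping groups with KSP-positive higher, and none passed in the fit over all probe sets.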
